A study of Homo sapiens with 17 samples.

Results

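The comparison described here sets cells carrying both reporter signals, GFP+mCherry+, against cells carrying neither, GFP-mCherry-, 25 days after the start of directed differentiation. It rests on 6 of the 17 libraries of the series: libraries 1, 4 and 7 of the GFP+mCherry+ cells and libraries 3, 6 and 9 of the GFP-mCherry- cells. Of 20218 genes in the deposited table, 14099 reached at least 1 FPKM (fragments per kilobase of transcript, scaled to the fragments of the library) in at least 2 of these 6 libraries and were tested. The cells of all groups derive from H9, a human embryonic stem cell line, carry the line label SHOX2, and were differentiated toward heart cells and sorted by fluorescence. The labels give neither the gene behind the mCherry signal nor the number of clones. They describe a cardiomyocyte procedure (CHIR99021, BMP4 and Activin A, then XAV939) and a sinoatrial one, which has the same first step and adds cucurbitacin, retinoic acid, SU5402, XAV939, Tyrphostin AG 490 and chidamide. They do not say which of these procedures each sorted group came from. Cells with mCherry alone, GFP-mCherry+ (libraries 2, 5 and 8 at day 25), are described below only for reference. So are the same GFP+mCherry+ and GFP-mCherry- sorts at day 40 (libraries 10 and 13, and libraries 12, 15 and 18). The fit also holds the day 40 GFP-mCherry+ libraries 11, 14 and 17. All 17 libraries share its estimate of the spread, so all of them enter the day 25 p-values.

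The sinoatrial node is the pacemaker of the heart. Its cells fire on their own because HCN channels carry an inward current between beats, low-voltage calcium channels add to it, and calcium released from the sarcoplasmic reticulum is pushed out through the sodium-calcium exchanger. In the embryo the transcription factor SHOX2, with TBX3, TBX18 and ISL1, marks the region that becomes the node and holds back NKX2-5, the factor of the working chambers. A cell that falls outside both reporters in such a culture can be any other derivative of mesoderm or endoderm, among them endothelium, epicardium, fibroblasts and epithelium.

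The summed FPKM of the 6 libraries lay between 566029 and 632572, and each had between 13346 and 13766 genes at 1 FPKM or more; read depth is unknown. On the log2(FPKM + 1) scale Pearson's r across genes was 0.949 to 0.982 within the GFP+mCherry+ libraries, 0.970 to 0.983 within the GFP-mCherry- libraries and 0.913 to 0.927 between the groups. Library 1 was the least like its own group, and its cardiac genes were mostly lower than those of libraries 4 and 7. Whether the 3 libraries of each group stem from separate cultures is not in the labels. The p-values thus measure only the spread among libraries within groups, pooled over the 6 groups of the series, and this spread may be technical. In sorted bulk samples, fewer cells of a type and less RNA per cell cannot be told apart.

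SHOX2 (ENSG00000168779, hg19 chr3:157814947-157824292), which the labels name as the line and the GFP signal is taken to report, had 49.0, 139 and 87.4 FPKM in libraries 1, 4 and 7 and 0.323, 0.415 and 0.545 FPKM in libraries 3, 6 and 9. It was above the double-negative level in every GFP+mCherry+ library, by 5.90 ± 0.32 on the log2(FPKM + 1) scale (SE; adjusted p = 6.17e-08, limma), and it had the largest difference of the comparison. The cells were sorted on GFP, so if GFP reports SHOX2 its difference was fixed by the sort, at either day. They were sorted on mCherry as well, so the same holds for the gene that mCherry reports, which the labels do not give. TNNT2, cardiac troponin T and a defining gene of heart muscle, had 1006, 2427 and 1955 FPKM against 168, 123 and 114 (log2 difference 3.65 ± 0.46, adjusted p = 1.48e-04). The labels give every group the same sinoatrial cell type, whereas the double-negative libraries had under 1 FPKM of SHOX2 and still held troponin T. MYH6, the atrial myosin heavy chain, had 229, 463 and 455 FPKM against 6.05, 7.09 and 5.04, a log2 difference of 5.70 ± 1.62 with an adjusted p of 0.0319. Library 17, a GFP-mCherry+ library of day 40 in the same fit, lists MYH6 at 0. With such listed zeros set to missing the adjusted p of MYH6 was 1.9e-05, and with any 1 of the 6 libraries left out it was 0.0538 to 0.0907.

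Across all genes 1673 were called at an adjusted p under 0.05, which is 11.9% of those tested. Of these, 868 (6.16%) were higher and 805 (5.71%) were lower in GFP+mCherry+ cells. On the scale of FPKM + 1, 52 genes were called and at least 8-fold higher, while 8 were called and at least 8-fold lower. The added 1 shrinks the ratios of genes near 0 FPKM in 1 group. CD34, with group means of 0.573 and 10.9 FPKM, had a log2 difference of -2.89 and is not among the 8. In 2190 genes (15.5%) all 3 GFP+mCherry+ libraries were above all 3 GFP-mCherry- libraries, and in 2937 (20.8%) all were below. The number of calls depended on single libraries: it was 989 without library 3, 1049 without library 4, 1031 without library 6, 886 without library 7 and 883 without library 9. Without library 1 it was 1379, of which 874 were higher and 505 lower.

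**Figure D1:**
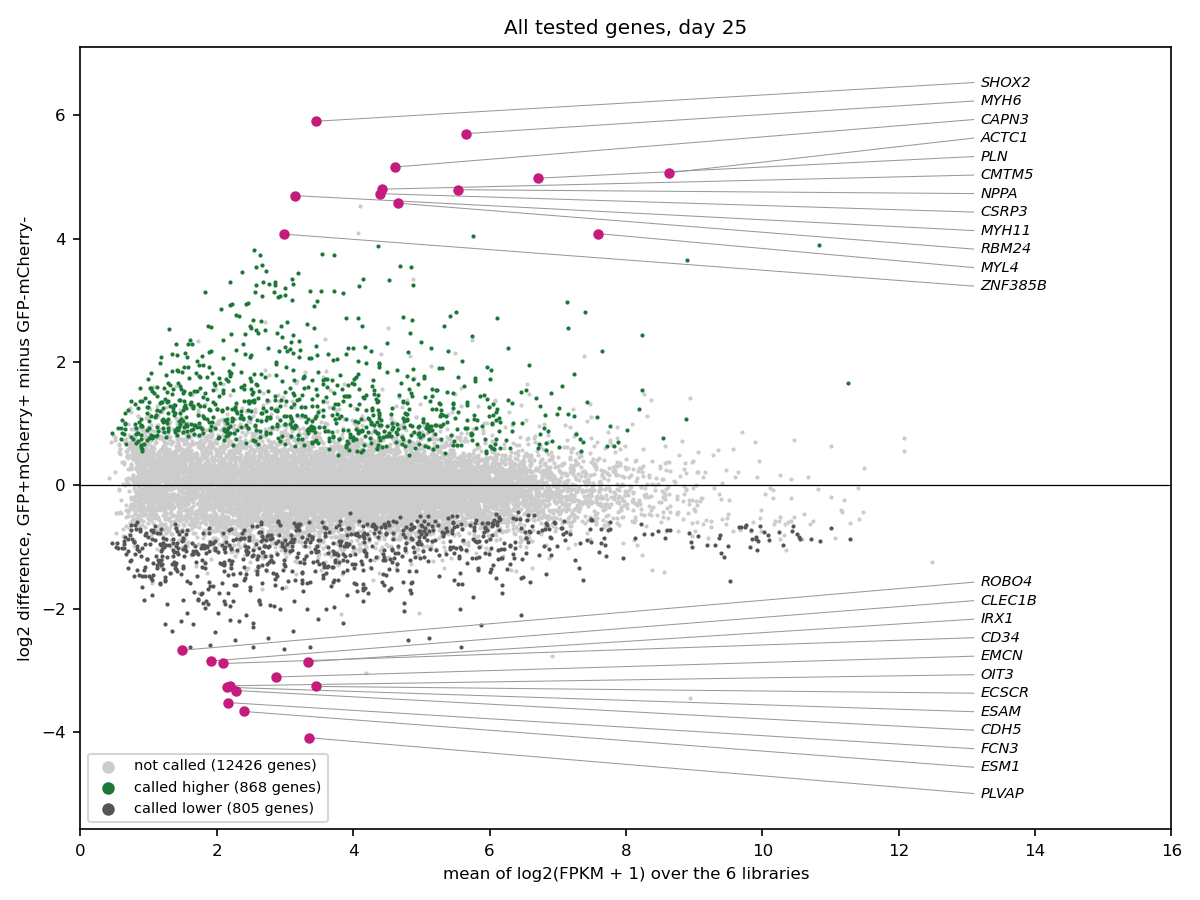
Each point is 1 of 14099 tested genes, with its mean log2(FPKM + 1) over the 6 day 25 libraries on the horizontal axis and the log2 difference GFP+mCherry+ minus GFP-mCherry- on the vertical axis; green points were called higher, dark points lower, and magenta points are the 12 genes with the largest called difference in each direction. SHOX2 (5.90) is at the top, PLVAP (-4.09) at the bottom, and all 12 genes marked on the lower side have a smaller size of difference than SHOX2.

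The 12 genes with the largest higher values were SHOX2, MYH6, CAPN3, ACTC1, PLN, CMTM5, NPPA, CSRP3, MYH11, RBM24, MYL4 and ZNF385B. After SHOX2 the smallest adjusted p belonged to CAPN3, a calcium-dependent protease of muscle, with 117, 182 and 144 FPKM against 3.96, 3.50 and 2.08 (log2 difference 5.16 ± 0.32, adjusted p = 1.97e-07). ACTC1, cardiac alpha-actin, had 1300.2, 3270.5 and 2849 FPKM against 79.6, 75.7 and 51.2 (log2 difference 5.07, adjusted p = 3.69e-05). The choice of these 12 required that no library of either group crossed into the range of the other. RBM24, a splicing factor of heart muscle, differed by 4.57 (adjusted p = 2.99e-04), and CMTM5, a membrane protein, by 4.80 (adjusted p = 1.33e-05). The 12 largest lower values were those of PLVAP, ESM1, FCN3, CDH5, ESAM, ECSCR, OIT3, EMCN, CD34, IRX1, CLEC1B and ROBO4. Among them are genes known from endothelium, such as PLVAP, CDH5 and ROBO4, and the transcription factor IRX1.

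Of 15 sinoatrial transcription factors and signals, 7 were called higher and 1 lower, with a median log2 difference of 0.62, against -0.04 over all tested genes. The 7 were SHOX2, CPNE5, VSNL1, BMP2, BMP4, TBX5 and RGS6. SHOX2 is counted here although the sort was on GFP, which is taken to report it. CPNE5, a calcium-dependent membrane-binding protein, had 30.5, 54.7 and 43.3 FPKM against 1.71, 2.68 and 2.17 (log2 difference 3.76, adjusted p = 1.36e-05). VSNL1, a neuronal calcium sensor, had 12.0, 21.1 and 16.4 FPKM against 0.490, 0.744 and 0.478 (log2 difference 3.45, adjusted p = 2.94e-05). Both were low in every double-negative library. The other node factors did not share this contrast. TBX3, a repressor of the chamber programme, had 27.2, 44.0 and 35.0 FPKM against 18.9, 27.0 and 21.5, a difference of 0.62 ± 0.25 that did not pass (adjusted p = 0.122). ISL1, a factor of cardiac progenitors and of the node, had 6.72, 14.1 and 11.4 FPKM against 12.5, 15.1 and 7.99 (log2 difference -0.14, adjusted p = 0.807), so the groups overlapped. TBX18 had 18.8, 38.5 and 28.8 FPKM against 90.1, 33.8 and 85.2 (log2 difference -1.18 ± 0.62, adjusted p = 0.237), and libraries 3 and 9 of the double-negative cells held its highest values. The member called lower was MEIS1, a TALE homeobox factor, by -0.65 (adjusted p = 0.0371); it lost the call without library 1, 4, 6, 7 or 9 (adjusted p up to 0.128).

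Pacemaker channels were higher in part. Of 11 tested channel and exchanger genes 5 were called higher and 1 lower, with a median log2 difference of 0.91. HCN4 (ENSG00000138622, hg19 chr15:73612199-73661605), the main pacemaker channel of the node, had 31.4, 43.5 and 46.1 FPKM against 10.1, 5.61 and 9.00 (log2 difference 2.18 ± 0.33, adjusted p = 4.97e-04). CACNA1D, the low-voltage L-type calcium channel of the node, had 11.0, 24.6 and 19.5 FPKM against 1.86, 1.41 and 0.519 (log2 difference 3.08, adjusted p = 1.33e-05). The groups did not overlap for either gene, and library 1 was the lowest of its group in both. SLC8A1, the sodium-calcium exchanger, had 54.2, 105 and 116 FPKM against 5.86, 7.01 and 6.65 (log2 difference 3.55, adjusted p = 8.96e-05). The T-type calcium channel gene CACNA1G was also among those called higher. Another T-type gene, CACNA1H, was on the other side, with 8.45, 9.57 and 12.2 FPKM against 23.6, 27.8 and 31.6 (log2 difference -1.38, adjusted p = 0.0304). Its groups did not overlap, yet leaving out any 1 of libraries 1, 3, 4, 6, 7 and 9 ended the call (adjusted p up to 0.102).

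**Figure D2:**
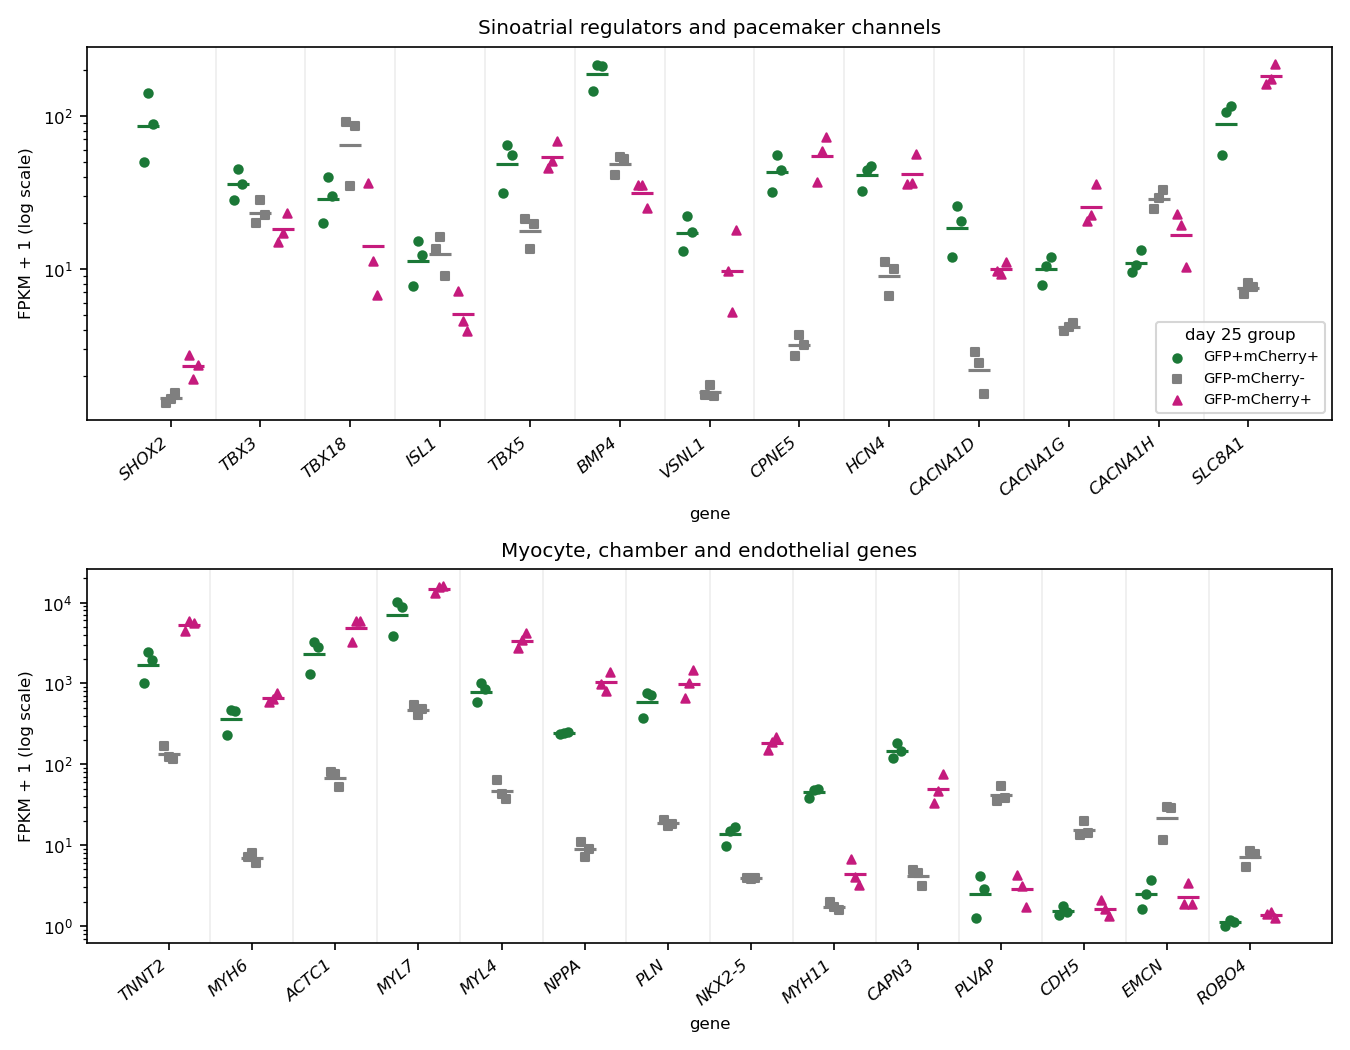
Points are single day 25 libraries and short bars the group means on the log scale, with FPKM + 1 on a log axis; green circles are GFP+mCherry+, grey squares GFP-mCherry- and magenta triangles GFP-mCherry+ cells. SHOX2, HCN4 and CACNA1D of the green libraries lie above all grey ones, ISL1 and TBX18 overlap, and the 4 endothelial genes at the right of the lower panel are higher in the grey libraries than in the other 2 groups.

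Values of the third sort place these differences. In the GFP-mCherry+ libraries HCN4 was 35.0, 35.1 and 55.1 FPKM, a direct difference from the GFP+mCherry+ cells of -0.04 (adjusted p = 0.954). CACNA1D (0.89, adjusted p = 0.034), TBX3 (0.98, adjusted p = 0.0123), ISL1 (1.17, adjusted p = 0.0138) and BMP4 (2.58, adjusted p = 2.12e-05) were higher in GFP+mCherry+ than in GFP-mCherry+ cells on the log2 scale. TNNT2 was lower by -1.65 (adjusted p = 0.0203), NPPA by -2.09 (adjusted p = 0.00908) and NKX2-5 by -3.75 (adjusted p = 5.56e-04). The summed channel and exchanger list was 143 to 257 FPKM in GFP+mCherry+ libraries and 304 to 390 in GFP-mCherry+ ones. NKX2-5 had 8.87, 14.0 and 15.8 FPKM in GFP+mCherry+ cells, 2.96, 2.86 and 2.93 FPKM in double-negative cells and 149, 186 and 215 FPKM in GFP-mCherry+ cells. Its difference from the double-negative cells, 1.79 ± 0.55 with an adjusted p of 0.0439, was lost without any 1 of the 6 libraries (0.0524 to 0.14).

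Contractile genes were higher as a group. The sort also used mCherry, and how far that gate set the differences in these genes was not tested. Of 26 genes of the thick filament and Z-disc 21 were called higher and 0 lower, and their median log2 difference was 2.88. Leaving out 1 library gave 16 to 20. MYL7, the atrial regulatory light chain, had 3876, 10125 and 8829 FPKM against 545, 401 and 480.2 (log2 difference 3.89, adjusted p = 1.03e-04). MYL4, the atrial essential light chain, had 583, 1002 and 842 FPKM against 62.8, 41.3 and 36.7 (log2 difference 4.08, adjusted p = 9.93e-05). CSRP3, a Z-disc protein, had 82.5, 135 and 111 FPKM against 3.18, 3.35 and 2.79 (log2 difference 4.73, adjusted p = 7.11e-05). In all of these, library 1 was the lowest GFP+mCherry+ library and still stood far above the double-negative ones. Of 10 thin filament genes 5 were called higher, namely ACTC1, TNNT2, ACTA1, TMOD1 and TNNC1, with a median of 1.55; the count was 3 without library 6 and without library 7. The summed FPKM of the thick filament list was 5279, 12858 and 11275 in libraries 1, 4 and 7 and 804, 674 and 713 in libraries 3, 6 and 9. In the GFP-mCherry+ libraries of day 25 it was higher still, at 21494 to 28217.

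Calcium handling genes were higher as well, with 9 of 17 called higher, 0 lower and a median of 1.26. PLN, the inhibitor of the sarcoplasmic calcium pump, had 373, 757 and 717 FPKM against 19.3, 16.4 and 17.4 (log2 difference 4.98, adjusted p = 4.62e-05). ATP2A2, the pump itself, had 352, 490.0 and 445 FPKM against 102, 96.7 and 80.8 (log2 difference 2.18, adjusted p = 2.97e-05). TRDN (2.68, adjusted p = 3.07e-04) and JPH2 (1.601, adjusted p = 3.12e-04), which tether the release units, were also higher. RYR2, the release channel, was not called at 39.9, 42.3 and 32.1 FPKM against 36.5, 29.2 and 21.2; it is named here after its values were seen.

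Among 15 chamber transcription factors and peptides 6 were called higher and 0 lower, with a median of 0.67. Beside these and the next 2 lists, 6.16% of all tested genes were called higher and 5.71% lower. NPPA, the atrial natriuretic peptide, had 238, 246 and 248 FPKM against 10.0, 6.04 and 7.90 (log2 difference 4.79, adjusted p = 2.97e-05), with little spread among libraries 1, 4 and 7. MYOCD, a coactivator of muscle genes, differed by 2.57 (adjusted p = 2.14e-04) and TBX20 by 2.32 (adjusted p = 0.0104; 0.0503 without library 3). The count of the list was 3 without library 3. Of 13 further sodium and potassium channel genes 4 were called higher, among them KCNE1 (1.53, adjusted p = 0.0048), and the count was 2 without library 3 or library 7. KCNJ2, an inward rectifier of working muscle, was lower at 3.41, 4.40 and 4.86 FPKM against 12.3, 16.05 and 14.0 (log2 difference -1.54, adjusted p = 0.00179). In the autonomic list of 13 genes 3 were called higher, 1 was called lower and 9 were not called. CHRM2, the muscarinic receptor that slows the heart, was higher by 1.46 (adjusted p = 0.0012), as were the adenosine receptor ADORA1 (1.96, adjusted p = 2.14e-04) and the G protein subunit GNAO1 (2.51, adjusted p = 9.87e-05). ADRA1B, an adrenergic receptor, was lower by -1.67 (adjusted p = 0.0034).

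Smooth muscle genes were higher together with the cardiac ones: 6 of 10 were called higher and 0 lower, with a median of 1.28. MYH11, the smooth muscle myosin heavy chain, had 37.2, 47.2 and 48.4 FPKM against 0.960, 0.702 and 0.568 (log2 difference 4.70, adjusted p = 1.33e-05). MYLK, myosin light chain kinase, had 84.9, 116 and 91.8 FPKM against 7.85, 8.60 and 6.06 (log2 difference 3.53, adjusted p = 2.94e-05). Both were also higher than in GFP-mCherry+ cells, by 3.35 (adjusted p = 1.94e-04) and 3.27 (adjusted p = 1.05e-04) on the log2 scale. TAGLN and ACTG2 of the same list overlapped between the groups. Of 27 fibroblast and matrix genes 2 (beside 6.16% of all genes) were called higher (VCAN, by 1.41, adjusted p = 0.00179, and OGN, by 2.29, adjusted p = 0.0246), 0 lower, and the median was 0.40. OGN lost its call without library 1, 3, 6 or 7 (adjusted p up to 0.1), and the count was 1 without library 1, 6 or 7 and 9 with only the compared groups in the fit. COL1A1, the main fibrillar collagen chain, had 1472, 1174 and 1667 FPKM against 1270, 1453 and 1259 and was not called (log2 difference 0.10, adjusted p = 0.864). FN1, fibronectin, is listed at 0 in library 7 and at 1259 to 2045 FPKM in the other 5 libraries, and its difference is not given.

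Of 20 BMP signalling genes 13 were not called, and the list median was -0.11. The shares over all tested genes were 6.16% called higher and 5.71% called lower. Among the 5 called higher were the ligands BMP4, BMP2, BMP7 and BMP5, and the 2 called lower were ID1 and SMAD6, which respond to the pathway. BMP4 had 145, 214 and 209.7 FPKM against 39.7, 52.8 and 50.8 (log2 difference 1.95, adjusted p = 7.11e-05). ID1 had 43.8, 37.9 and 43.3 FPKM against 147, 201 and 206 (log2 difference -2.11, adjusted p = 1.65e-04). BMP4 was above, and ID1 below, the double-negative level in every library. The higher calls numbered 3 without library 3, 4 or 7, and SMAD6 (-0.75, adjusted p = 0.0251) lost its call without library 4, 6, 7 or 9 (adjusted p up to 0.0955) and with the GC correction.

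Endothelial and endocardial genes were lower as a group. Of 18, 12 were called lower and 0 higher, with a median of -1.59, and leaving out 1 library gave 10 to 12. CDH5 (ENSG00000179776, hg19 chr16:66400532-66438686), the cadherin of endothelial junctions, had 0.374, 0.767 and 0.494 FPKM against 12.2, 18.99 and 13.0 (log2 difference -3.33 ± 0.32, adjusted p = 1.49e-05). PLVAP, a protein of endothelial pores, had 0.266, 3.12 and 1.87 FPKM against 34.2, 53.6 and 37.7 (log2 difference -4.09, adjusted p = 1.16e-04). ROBO4, an endothelial guidance receptor, had 0.0104, 0.191 and 0.124 FPKM against 4.34, 7.45 and 6.80 (log2 difference -2.67, adjusted p = 1.91e-06). CDH5 and ROBO4 were under 1 FPKM in every GFP+mCherry+ library, and PLVAP was above it in libraries 4 and 7. Of the 6 members not called, FLT1, a receptor for vascular growth factor, and the factor NFATC1 had all GFP+mCherry+ libraries above all double-negative ones (0.79, adjusted p = 0.325, and 0.29, adjusted p = 0.423). KDR, another such receptor, overlapped between the groups and had 214, 27.4 and 52.3 FPKM against 23.0, 44.9 and 43.4, and its high value was in library 1. With KDR included the summed list was 297 FPKM in library 1, 108 in library 4 and 136 in library 7, against 238, 361 and 307 in libraries 3, 6 and 9. PECAM1 was not analysed here.

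The starts of 4 genes are shown as examples of the motifs searched for: MYL7 and MYBPC3 of the thick filament list, EGFL7 of the endothelial list, and ECSCR, 1 of the 12 largest lower differences. They were picked because each holds a motif. Each line holds the 250 bases before the start, 5′ to 3′ along the gene, from RefSeq (GRCh38.p14, a different build from that of the expression table); capitals mark matches to the motifs named after them.
MYL7, chr7:44141333-44141582, minus strand: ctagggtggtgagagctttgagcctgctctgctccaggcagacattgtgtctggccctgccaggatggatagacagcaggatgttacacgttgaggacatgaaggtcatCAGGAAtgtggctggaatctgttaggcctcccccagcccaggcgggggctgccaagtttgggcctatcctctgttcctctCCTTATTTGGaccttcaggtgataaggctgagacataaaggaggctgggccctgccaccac
MYBPC3, chr11:47352703-47352952, minus strand: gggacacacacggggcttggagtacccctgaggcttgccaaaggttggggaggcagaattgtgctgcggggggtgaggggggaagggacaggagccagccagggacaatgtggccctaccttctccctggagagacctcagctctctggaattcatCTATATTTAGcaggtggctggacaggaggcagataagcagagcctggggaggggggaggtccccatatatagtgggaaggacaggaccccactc
ECSCR, chr5:139462744-139462993, minus strand: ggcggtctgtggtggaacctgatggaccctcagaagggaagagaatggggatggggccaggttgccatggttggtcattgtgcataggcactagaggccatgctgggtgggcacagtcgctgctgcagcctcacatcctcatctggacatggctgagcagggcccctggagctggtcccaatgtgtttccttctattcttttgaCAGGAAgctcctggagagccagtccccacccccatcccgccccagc
EGFL7, chr9:136658606-136658855, plus strand: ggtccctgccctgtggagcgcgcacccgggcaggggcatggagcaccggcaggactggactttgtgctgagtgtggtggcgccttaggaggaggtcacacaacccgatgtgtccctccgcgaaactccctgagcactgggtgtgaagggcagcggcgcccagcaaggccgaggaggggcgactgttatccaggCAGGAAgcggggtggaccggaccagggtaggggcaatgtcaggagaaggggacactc
In MYL7 the capitals are a CAGGAA and, 61 bases before the start, a CArG box, the class of element bound by serum response factor. In MYBPC3, cardiac myosin-binding protein C (log2 difference 3.88, adjusted p = 1.98e-04), they are a MEF2 box 94 bases before the start. In ECSCR (-3.26, adjusted p = 0.00119) and EGFL7 (-2.51, adjusted p = 4.62e-04) they are CAGGAA, which contains the GGAA core of ETS factors, at 46 and 57 bases.

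Both strands were searched for these motifs, and for TATAAA, in the 10525 tested genes with such a sequence. TATAAA was in 5.65% of all of them, in 10.0% of the 617 called higher and in 5.54% of the 560 called lower. CAGGAA was in 21.1%, 19% and 28.2% in the same order. A CArG box was in 1.09%, 2.76% and 0.536%, and a MEF2 box in 1.53%, 3.40% and 1.25%. In the thick filament list 7 of 18 sequences held a MEF2 box, 4 a CArG box and 7 CAGGAA, and in the endothelial list 7 of 13 held CAGGAA and 0 either box. No marked motif overlaps another in the 4 printed sequences. These shares are descriptions of the letters in this window and were not tested.

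Epicardial and mesothelial genes also stood lower: 4 of 13 were called lower and 0 higher, with a median of -0.69. ALDH1A2, the enzyme that makes retinoic acid, had 16.2, 18.7 and 19.9 FPKM against 137, 67.3 and 176 (log2 difference -2.63, adjusted p = 0.00224). MSLN, mesothelin, differed by -1.44 (adjusted p = 0.00217) and SEMA3D by -1.56 (adjusted p = 0.0104). WT1 had 11.2, 14.1 and 11.5 FPKM against 43.3, 31.0 and 50.6 (log2 difference -1.66, adjusted p = 0.0239), a call lost without library 1, 3, 7 or 9 (up to 0.0915). ITLN1 and LRRN4 of this list were highest in library 1, at 187 and 63.5 FPKM, and overlapped between the groups. RARB, a retinoic acid receptor gene that responds to its own ligand, was lower as well (-1.14, adjusted p = 0.00122), and 6 of 17 HOX cluster genes were called lower and 0 higher. HOXB2 had 26.0, 26.0 and 24.9 FPKM against 80.4, 104 and 61.3 (log2 difference -1.61, adjusted p = 4.79e-04). The HOX count was 3 without library 1 or 7 and 2 without library 6 or 9. The share called lower over all tested genes was 5.71%.

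In the Notch list 8 of 13 genes were not called, and in the Wnt list 16 of 22. Over all tested genes 6.16% were called higher and 5.71% lower. Of 13 Notch genes 4 were called lower: DLL4 (-1.36, adjusted p = 0.00189), NOTCH4 (-1.68, adjusted p = 0.00423), DLL1 and NOTCH3; without library 6 there were 2. JAG1, another Notch ligand, was higher by 1.05 (adjusted p = 0.00337). Of 22 Wnt genes 2 were called higher, WNT5A (1.03, adjusted p = 0.00907) and the secreted DKK3 (1.39, adjusted p = 0.00151), and 4 lower, among them NOTUM, which inactivates Wnt ligands (-1.33, adjusted p = 0.0015). The lower Wnt calls numbered 2 without library 4, 6, 7 or 9, and the higher ones 4 without library 1.

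Epithelial genes were called lower in part and detected in both sorts. Of 18, 5 were called lower and 0 higher, with a median of -0.87, beside 5.71% of all tested genes called lower. In 15 of the 18 all GFP+mCherry+ libraries were below all double-negative ones, beside 20.8% of all tested genes. CDH3 had 122, 94.2 and 77.6 FPKM against 339.6, 269.7 and 244 (log2 difference -1.54, adjusted p = 0.00244). EPCAM had 129.6, 198 and 172 FPKM against 323, 425 and 381 (log2 difference -1.18, adjusted p = 0.0287; lost without library 1, 3, 6, 7 or 9, up to 0.0956). CDH1, the epithelial cadherin, had 194, 122 and 135 FPKM in GFP+mCherry+ cells and 83.0, 145 and 134 in double-negative cells (log2 difference 0.32, adjusted p = 0.511). Both sorts thus held epithelial transcripts, and CDH1 was higher in GFP+mCherry+ than in GFP-mCherry+ cells by 2.51 (adjusted p = 1.26e-04). The summed epithelial list was 2436 to 2544 FPKM in GFP+mCherry+ libraries, 4113 to 4631 in double-negative ones and 1385 to 1801 in GFP-mCherry+ ones. Its 5 calls became 2 without library 1, 3, 7 or 9, 1 without library 6, and 12 with only the compared groups in the fit. Whether these epithelial transcripts bear on the other differences was not tested.

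Of 19 endoderm and liver genes 3 were called higher (VTN, APOA2 and APOB) and 1 lower, and 15 were not called. Beside this, 6.16% of all tested genes were called higher and 5.71% lower. The median log2 difference of the list was 1.22. VTN, vitronectin, had 60.1, 49.6 and 42.1 FPKM against 15.7, 16.1 and 10.9 (log2 difference 1.77, adjusted p = 6.44e-04). AFP, alpha-fetoprotein, had 488, 1066 and 995 FPKM against 202, 364 and 372 and was not called (log2 difference 1.41, adjusted p = 0.0976), and ALB had 31.9, 109 and 88.4 against 10.8, 26.0 and 17.3 (1.93, adjusted p = 0.146). In this list libraries 4 and 7 were the high ones and library 1 the low one, and without library 1 the higher calls were 7. The called lower gene was SOX17, an endoderm and endothelial factor, at 0.0663, 0.599 and 0.0508 FPKM against 1.83, 3.83 and 2.23 (log2 difference -1.54, adjusted p = 4.46e-04). Gut and lung epithelium genes had 0 of 9 called by limma (4 had an unadjusted p under 0.05), and SLPI, a secreted protease inhibitor, was 768 FPKM in library 1, 23.6 and 42.5 in libraries 4 and 7, and 4.40 to 20.2 in the double-negative libraries (log2 difference 3.35, adjusted p = 0.0669). In the neuron list STMN2 had 184, 64.6 and 69.5 FPKM against 9.94, 27.3 and 31.4 (log2 difference 2.14, adjusted p = 0.0516). The neural adhesion gene NCAM1 was called higher (1.40, adjusted p = 0.00164) and the neural crest factor TFAP2B lower (-2.01, adjusted p = 7.12e-04).

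**Figure D3:**
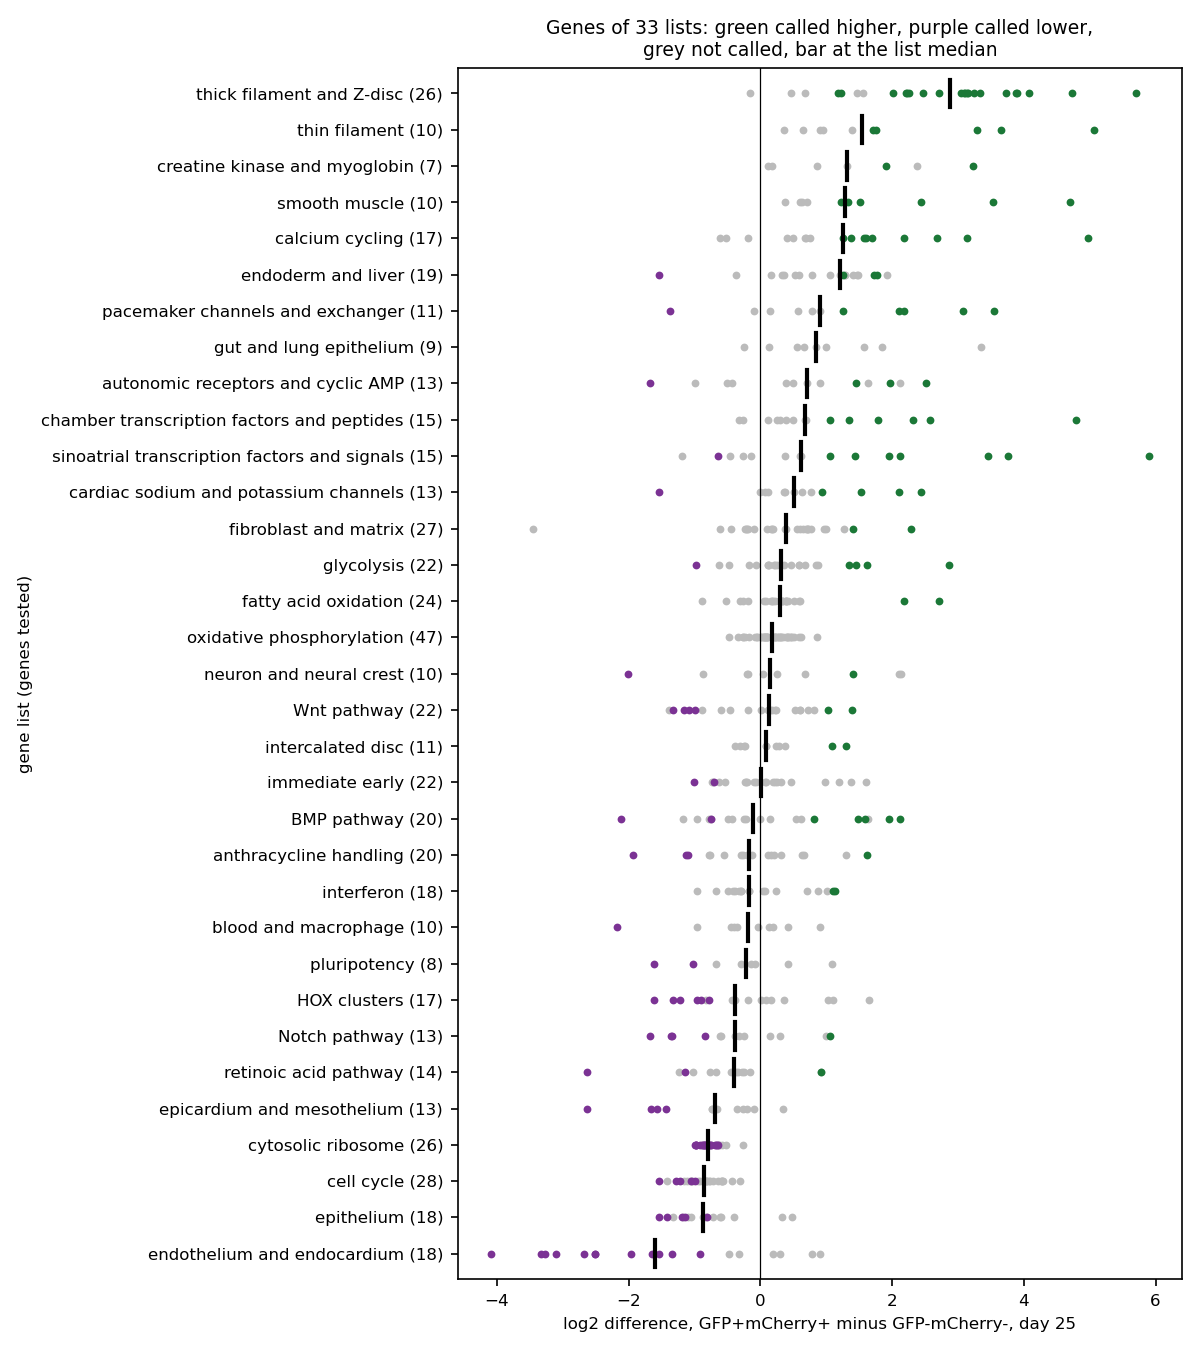
Each row is a gene list with the number of its tested genes, and each point a gene placed by its day 25 log2 difference GFP+mCherry+ minus GFP-mCherry-; green points were called higher, purple lower, grey neither, and the black bar is the list median. The thick filament list lies farthest to the right (median 2.88) and the endothelial list farthest to the left (median -1.59), while 0 of 47 oxidative phosphorylation genes were called.

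Of 11 intercalated disc genes 2 were called higher, the cadherin CDH2 (1.30, adjusted p = 4.79e-04) and the connexin GJA5 (1.10, adjusted p = 0.0414; lost without library 1, 6, 7 or 9). Of 22 immediate early genes IER2 (-0.71, adjusted p = 0.0268) and JUND (-1.01, adjusted p = 0.0477) were lower, a count of 0 without library 4, 6 or 9. Among all tested genes 6.16% were called higher and 5.71% lower.

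Few genes of energy metabolism were called, and 6.16% of all tested genes were called higher. Of 47 oxidative phosphorylation genes 0 were called by limma (5 had an unadjusted p under 0.05, all higher), and the median was 0.17. Of 24 fatty acid oxidation genes 2 were called higher: FABP3, the heart fatty acid-binding protein, at 147, 201 and 183 FPKM against 26.8, 23.5 and 27.9 (log2 difference 2.71, adjusted p = 7.97e-04), and the coactivator PPARGC1A (2.185, adjusted p = 0.00179). In the list of 7 creatine kinase and myoglobin genes 2 were called higher, GATM (1.91, adjusted p = 3.75e-04) and MB. MB, myoglobin, had 35.1, 62.7 and 60.6 FPKM against 3.73, 5.34 and 4.78 (log2 difference 3.23, adjusted p = 0.0111). Glycolysis had 4 of 22 called higher, led by PGAM2, the muscle phosphoglycerate mutase (2.86, adjusted p = 0.00393), and 1 lower; the higher count was 2 without library 4, 6 or 7. SLC2A3, the neuronal-type glucose transporter, was the lower one (-0.97, adjusted p = 0.0436) and lost its call without library 1, 3, 6 or 9 (up to 0.169).

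Growth-related genes were lower, and 5.71% of all tested genes were called lower. Of 26 cytosolic ribosomal protein genes 18 were called lower and 0 higher, with a median of -0.79. RPS7 had 91.8, 87.9 and 83.6 FPKM against 148, 152 and 182 (log2 difference -0.86, adjusted p = 0.00392), and RPL30 had 1744, 1960 and 1848 against 3533, 3284 and 3386 (log2 difference -0.88, adjusted p = 0.00656). All of the list summed to 20528 to 22724 FPKM in GFP+mCherry+ libraries and 34725 to 38106 in double-negative ones. The count of 18 was sensitive: it was 11 with median-of-ratios scaling, 10 after quantile normalization, 9 without library 3 or 4, 11 without library 6, 8 without library 7 and 7 without library 9. Of 28 cell cycle genes 5 were called lower and 0 higher, with a median of -0.86. In 19 of the 28 all GFP+mCherry+ libraries were below all double-negative ones, beside 20.8% of all tested genes. The calls were led by CCNA2 at 8.42, 7.27 and 7.50 FPKM against 31.7, 14.0 and 16.02 (log2 difference -1.22, adjusted p = 0.0269), with its highest value in library 3. The count of 5 became 0 without library 3, 4 or 7, 3 without library 1 or 6, and 17 with the block on consecutive library numbers. MKI67 had 6.77, 4.50 and 3.84 FPKM against 14.2, 5.79 and 5.80 (log2 difference -0.59, adjusted p = 0.249).

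Since the series concerns anthracyclines, 20 genes of their transport and toxicity were listed. ABCB1, the efflux pump P-glycoprotein, had 0.904, 1.22 and 1.62 FPKM against 7.98, 5.50 and 9.38 (log2 difference -1.92, adjusted p = 0.00375). CELF4 was lower by -1.10 (adjusted p = 0.0081) and CYBA, a subunit of NADPH oxidase, by -1.13 (adjusted p = 0.0394; lost without any 1 library, up to 0.159). SLC28A3, a nucleoside carrier, was higher, with 7.76, 1.54 and 2.77 FPKM against 0.335, 0.363 and 0.578 (log2 difference 1.62, adjusted p = 0.0368; lost without library 1, 3, 6, 7 or 9, up to 0.145). Among blood genes LYZ was called lower (-2.18, adjusted p = 0.00137) and 9 of 10 were not called. Of 8 pluripotency genes L1TD1 (-1.62, adjusted p = 0.00263) and LIN28B (-1.03, adjusted p = 0.0114) were lower. In the interferon-response list 2 of 18 genes were higher, IFIT2 (1.14, adjusted p = 0.00721) and IFIT3 (1.10, adjusted p = 0.0114), and the list median was -0.17. IFIT3 had an adjusted p of 0.0516 without library 9. Over all tested genes 6.16% were called higher and 5.71% lower.

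The same sorts at day 40 came from other libraries, 2 against 3, and gave 1477 calls (10.5%), 830 higher (5.89%) and 647 lower (4.59%). Of the 868 genes higher at day 25, 397 were also called higher at day 40, which is 45.7% of the day 25 list and 47.8% of the day 40 list. Of the 805 lower genes, 270 were shared, or 33.5% and 41.7%. The sign was the same in 92.3% and 92.5% of the day 25 genes, and 4 and 5 genes were called in opposite directions. SHOX2 differed by 5.51 at day 40 (adjusted p = 9.37e-07), CAPN3 by 4.56 (adjusted p = 6.4e-06), HCN4 by 2.82 (adjusted p = 4.25e-04) and CACNA1D by 2.72 (adjusted p = 1.98e-04). Library 12, a day 40 double-negative library, stood apart with 796 FPKM of TNNT2 against 157 and 177 in libraries 15 and 18. Without it the day 40 calls were 1824, and thin filament calls 6 in place of 2.

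**Figure D4:**
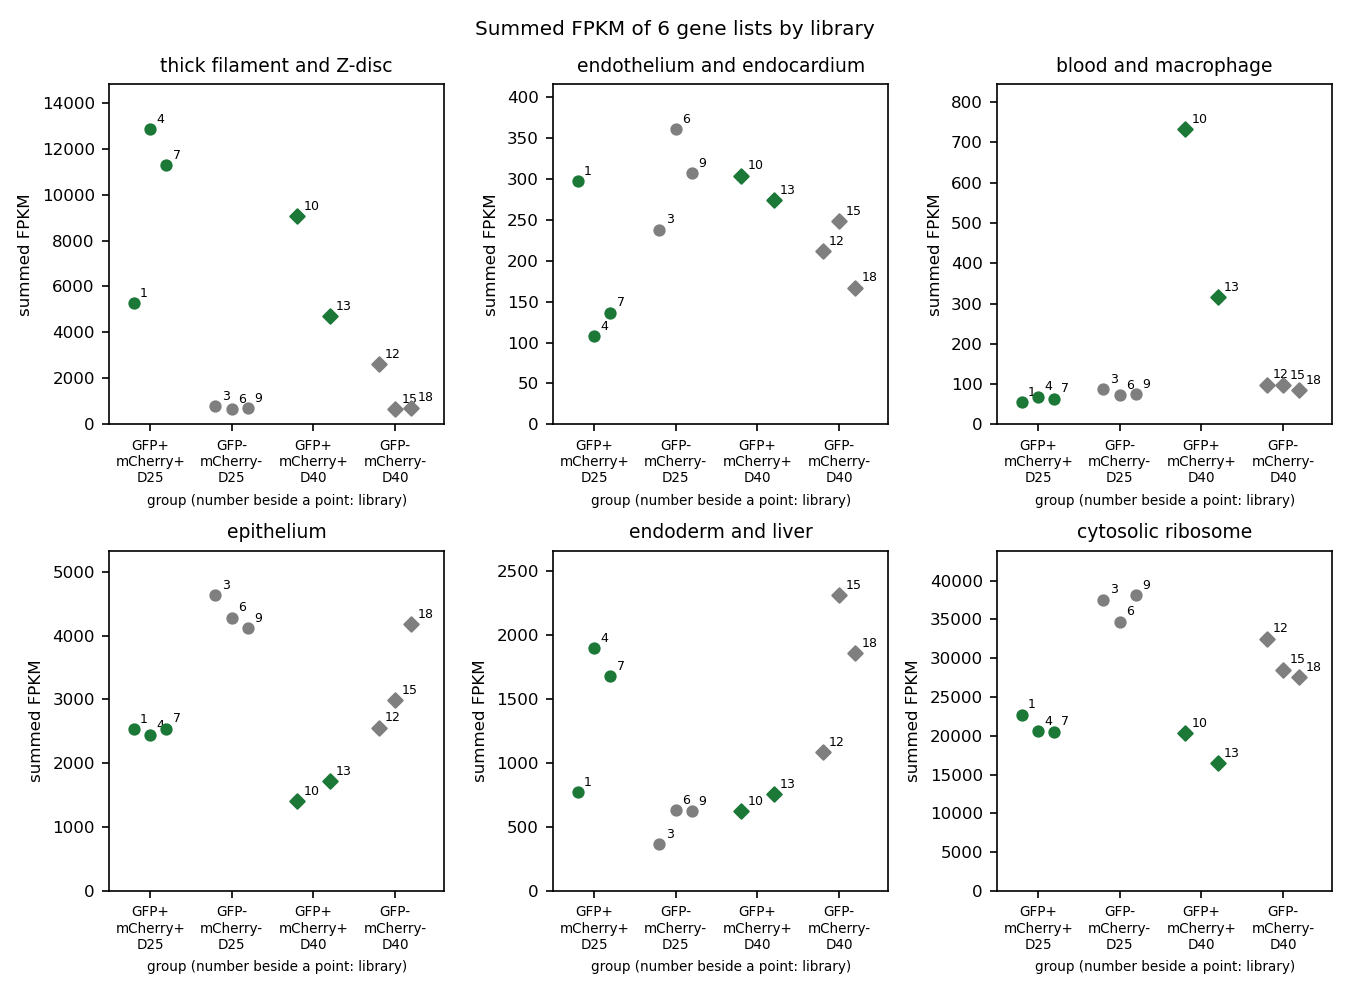
Points are libraries, numbered, with the summed FPKM of a list on an axis from 0; circles are day 25 and diamonds day 40, green GFP+mCherry+ and grey GFP-mCherry-. The thick filament sum is 5279 to 12858 in green against 674 to 804 in grey circles, the blood and macrophage sum is 315 and 734 in the green diamonds and 55.2 to 98.8 in the other 3 groups, and the endoderm sum changes order between the days.

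A test of whether the difference itself changed between the days called 52 genes (0.369%), 39 with a higher value at day 40 and 13 with a lower one. These became 21 and 22 with the block on consecutive library numbers, and 23 and 21 without library 1. The endothelial list had 3 members called lower at day 40 and a median of -0.52, compared with 12 and -1.59 at day 25, but of its members only ROBO4 passed the test of the change (1.73, adjusted p = 0.0251). Without library 12 the endothelial list had 2 called lower at day 40 and a median of -0.33. Blood and macrophage genes had 7 of 10 called higher at day 40 with a median of 2.37, and LAPTM5 and LYZ passed the test of the change. The genes tested at day 40, here 10 of the 17 in the list, were chosen by their day 25 FPKM. Endoderm and liver genes had 4 called lower at day 40 with a median of -1.10, and APOA2, APOB and RBP4 passed it.

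**Figure D5:**
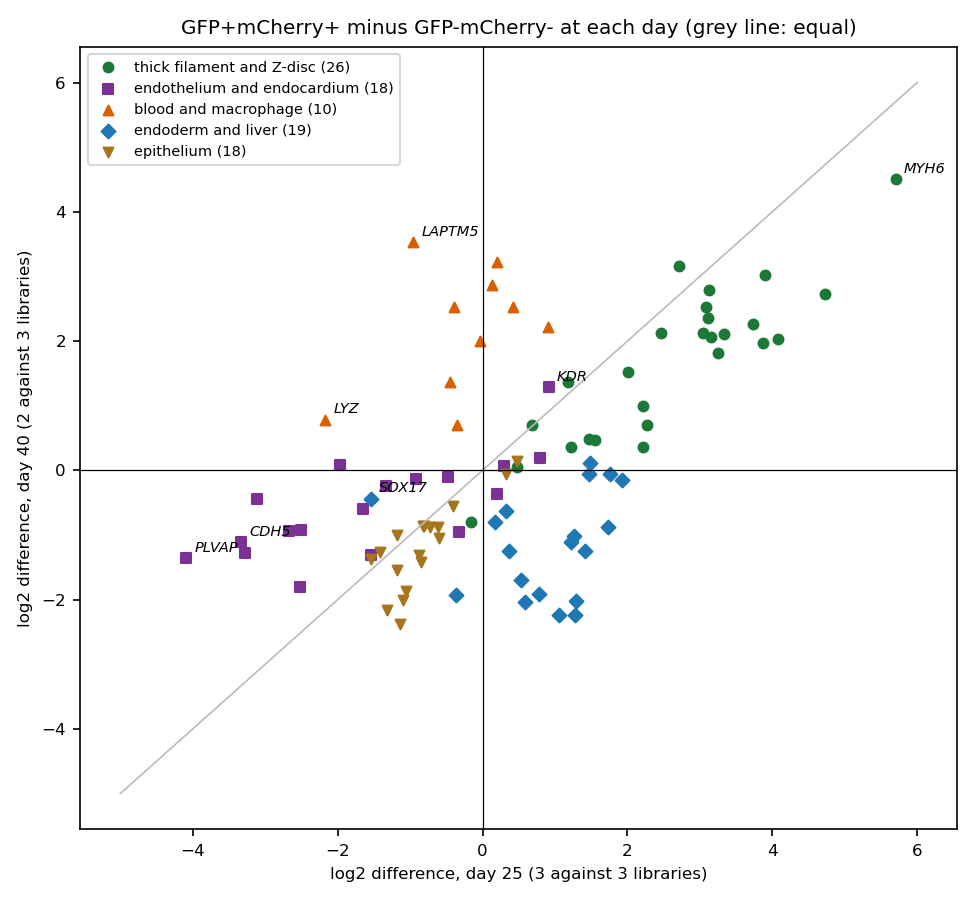
Each point is a gene of 1 of 5 lists, with its log2 difference at day 25 on the horizontal axis and at day 40 on the vertical axis; the grey line marks equal values. FLNC apart, thick filament genes lie at positive values on both axes, blood and macrophage genes have a median of -0.19 at day 25 and of 2.37 at day 40, all 10 of them above 0 at day 40, and endoderm genes other than SOX17 and FGG lie right of 0, most of them below 0 on the vertical axis.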

How the data were processed

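Sorted cells were sequenced after TruSeq RNA library preparation, as the labels' protocols say. Tools and build named in the submitters' processing notes are bcl2fastq 2.19, cutadapt, STAR 2.5.2b, Cufflinks 2.1.1 and hg19. The authors' table was read as FPKM, a unit its header does not state and which rests on Cufflinks being named and on the range of the values. Values of a gene name were summed (20368 rows, 20218 genes), and 41 values listed at 0 in 33 genes, where the rest of the group had at least 5 FPKM, were left as deposited. On log2(FPKM + 1), limma 3.58.1 (R 4.3.3) fitted 6 group means to all 17 libraries with a mean-variance trend, leaving 11 residual degrees of freedom; Benjamini-Hochberg adjustment ran over 14099 genes, those at 1 FPKM or more in 2 or more of the 6 libraries compared. In simulated data with 100 genes changed by 1 log2 unit and 100 by 2 log2 units, 51% and 90% respectively were called, beside 9 false calls.

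The members, the 33 gene lists and the rules were chosen with earlier results of these data known. Named were 10 fixed genes, the 12 largest called differences in each direction (mean of at least 5 FPKM, no overlap between libraries), up to 4 genes of each list by adjusted p, those called against their list, defining markers, and the 5 most clearly changed between days in each direction; other list members are named to complete a count, after their values were seen. The alternatives were pseudocount, filters, scalings, libraries in the fit, quality weights, a block on consecutive library numbers, zeros set to missing, and each library left out; a GC correction (99.5% of genes matched) and a fit of the 9 day 25 libraries were added after results were seen. Promoter sequences of 10525 genes were matched by symbol. Without fragment counts, counting intervals could not be given. Some genes of the lists are counted but not reported here by name.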

Additional observations from a re-analysis of the deposited data

Results flagged for a closer look

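The difference between GFP+mCherry+ and GFP-mCherry- cells changed from day 25 to day 40 in 52 genes, by limma's test of the change itself. The 5 with the smallest adjusted p whose log2 difference was higher at day 40 were LCP2 (by 3.82), STAB1 (4.24), NPL (3.19), LAPTM5 (4.48) and SRGN (4.70), genes known from macrophages and other blood cells. In LAPTM5, a lysosomal membrane protein of blood cells, libraries 10 and 13 of day 40 had 141 and 62.1 FPKM, and libraries 1, 4 and 7 of day 25 had 2.36, 5.03 and 3.94. In STAB1, a scavenger receptor of macrophages and sinusoidal endothelium, the difference was already called at day 25, in the other direction (-1.87, adjusted p = 0.00496). Leaving out AL590714.1, a clone name that the choice of named genes omits (-3.85, adjusted p = 0.014), the 5 with the smallest adjusted p whose difference was lower at day 40 were CDX2 (-2.77), LAMC3 (-2.01), NACAD (-2.00), CHRDL2 (-2.69) and CILP2 (-2.04). CDX2, an intestinal homeobox factor, had 2.92, 4.03 and 2.25 FPKM in libraries 1, 4 and 7 and 0.793 to 1.68 in libraries 3, 6 and 9, while at day 40 the double-negative libraries were the higher ones (2.65, 9.33 and 6.08 against 0.524 and 0.907). The summed blood and macrophage list was 315 and 734 FPKM in libraries 13 and 10, and its part in these changes was not tested.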

How the results depend on the processing

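Of 165 named genes, 125 were called at day 25; 91 of these kept their call in every alternative that tested them and 34 lost it with at least 1 library left out. The 1673 calls of day 25 became 6053 with sample quality weights (2972 higher, 3081 lower) and 883 to 1379 with 1 library left out; the other alternatives gave 1282 to 2405. Fitting only the compared groups gave 2104 calls, and the block on sets of consecutive library numbers 2127. The 1477 calls of day 40 became 426 with only the compared groups in the fit, 942 with quality weights and 350 to 1824 with 1 library left out. The 52 changes between days became 4 with a pseudocount of 0.1, 211 without a filter, 6 with a filter at 5 FPKM, 89 after quantile normalization, 156 with quality weights and 10 to 75 with 1 library left out. The causes were not tested. Among the named genes no called one reversed its sign; reversals of other genes were not tabulated. Of the named genes not called, ISL1 at day 25 moved from -0.14 to 0.0912 with quality weights and lay between -0.38 and 0.13 with 1 library left out (0.13 without library 1, 0.04 without library 6). With 1 library left out, COL1A1 at day 25 lay between -0.0105 and 0.24 (0.49 after quantile normalization), TBX18 at day 40 between -1.18 and 0.0365, and NKX2-5 at day 40 between -0.32 and 1.91. No paired analysis was possible because the labels share no replicate numbers between groups; the block above rests only on the order of library numbers. Depth is unknown, so what a low FPKM can show is unknown too.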
